A study of Mus musculus with 10 samples.

Results

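The semaphorin, ephrin and Slit guidance genes were followed in cultured mouse mesenchymal stem cells and a tumor line derived from them: the semaphorin ligands with their plexin and neuropilin receptors, the ephrins with their Eph receptors, and the Slits with their Robo receptors. The members were found by name, from the gene name that the array files give each probe, and the naming rule itself uses no measured value. These families were, however, chosen with earlier results of these data known. The rule found 86 probes for 60 genes, among 34717 distinct gene names on the array. The probe that was brightest over the 10 arrays stood for each gene. Of the 60 genes, 59 had a usable spot on all 10 arrays, 52 were bright enough to be tested, and 38 were well above background on every array. The other 14 of the 52 passed that filter through the groups in which they were bright. Semaphorins gave 18 tested genes, plexins and neuropilins 10, ephrin-A ligands 5, ephrin-B ligands 3, EphA receptors 6, EphB receptors 4, Slits 3 and Robos 3.

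These families were named for steering growing axons and are used by many other cells to attract or repel their neighbours. Class 3 semaphorins are secreted and act through neuropilin and plexin complexes, whereas the other vertebrate classes are tied to the membrane and mostly bind plexins directly. Ephrins and Eph receptors both sit in membranes and signal on contact in either direction, ephrin-A through a lipid anchor and ephrin-B through a transmembrane tail. Slits are large secreted proteins that bind Robo receptors. In bone, semaphorins and ephrins carry signals between osteoblasts, osteoclasts and vessels.

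Total RNA was measured on single-colour arrays in 5 groups of 2 independent cultures, all of FVB background and collected in exponential growth. The tumor line came from a tumor that grew after null BM-MSC were inoculated under the skin of NSG mice, which are immunodeficient. The null BM-MSC were bone marrow mesenchymal stem cells labelled as lacking Rb and p53, after 10 days of osteogenic induction. The null ASC were adipose mesenchymal stem cells labelled with the same losses and induction. The wild-type (WT) BM-MSC and WT ASC carried neither loss, and their labels name no osteogenic induction, so gene loss and osteogenic priming cannot be told apart in any null comparison. The labels call the null BM-MSC and the tumor line tumorigenic and the other groups non-tumorigenic. The growth protocol states that floxed cells were primed and then infected with an adenovirus carrying Cre under the CMV promoter, while the sample labels name double-null mice. It also says that all cultures were infected, without stating whether the WT cultures were among them. The tumor samples are labelled a tumor in some fields and a tumor cell line in others, and the 2 arrays are of 1 such line.

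Of the array spots, 53.3% to 58.4% were well above background on each array. The 8 arrays of the cultures lay on 1 slide and the 2 arrays of the tumor line on another, so slide and tumor line cannot be told apart. On the first slide WT and null cultures lay in different rows. Rb1 averaged 0.60 in null BM-MSC and 1.91 in WT BM-MSC, and -1.94 in null ASC and 1.31 in WT ASC, on the log2 scale used below. Trp53 averaged -1.0 in null BM-MSC and 0.77 in WT BM-MSC, and -4.81 in null ASC and 1.06 in WT ASC. The tumor line was at -1.97 for Rb1 and -7.58 for Trp53. Null BM-MSC kept more signal of both genes than null ASC and the tumor line did. The sources used here do not say whether these probes lie in the excised parts. The part of this remaining signal in the comparisons with null BM-MSC was not tested. Xist, made from the inactive X chromosome, was at -1.49 in the tumor line, -4.37 in null BM-MSC, 2.13 in WT BM-MSC, 4.48 in null ASC and 4.43 in WT ASC, and its part in the results for the X-linked members Efnb1 and Plxna3 was not tested. All 10 mesenchymal markers, Pdgfra and Col1a1 among them, were well above background in every group. Of 8 endothelial markers 3 were well above background in the tumor line, 2 in null BM-MSC, 4 in WT BM-MSC and 5 in each ASC group. Pecam1 and Kdr were well above background on all 10 arrays, and Cdh5 and Tek on none. The summed signal of the 8 endothelial markers, relative to each array's 75th percentile, was 2.90 to 3.45 in the tumor line and 3.63 to 3.73 in null BM-MSC. It was 3.78 to 4.09 in WT BM-MSC, 4.67 to 4.96 in null ASC and 4.34 to 4.49 in WT ASC. Of 8 macrophage markers 6 to 8 were well above background in each group. The macrophage signal was 13.6 to 14.5 in the tumor line, 22.4 to 23.5 in null BM-MSC, 28.8 to 29.1 in WT BM-MSC, 16.7 to 17.8 in null ASC and 29.4 to 34.1 in WT ASC. Of 8 neural and Schwann markers 5 or 6 were well above background in each group, Elavl3 in none, with a summed signal of 6.85 to 8.28 in the tumor line, 13.2 in null BM-MSC, 16.4 to 17.5 in WT BM-MSC, 12.6 to 13.4 in null ASC and 21.1 to 24.7 in WT ASC. Of 6 epithelial markers 3 were well above background in the tumor line, 5 in null BM-MSC and 4 in each other group. Epcam was well above background in none, and Cdh1 in null BM-MSC alone, at -2.45. Krt14 averaged -0.66 in null BM-MSC and -3.69 to -2.89 in the other groups. The summed epithelial signal was 0.179 to 0.197 in the tumor line, 0.921 to 1.07 in null BM-MSC and 0.240 to 0.323 in the other groups. The part of such cells in the results was not tested. In bulk RNA, fewer cells of a type and less RNA per cell cannot be told apart.

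A level below is the log2 of a probe's processed signal minus the log2 of the array's 75th percentile, so a level of 0 equals that percentile, and levels are compared between arrays for 1 probe, never between probes. Changes are differences of group mean levels with their standard error (SE) from 1 limma model over all 5 groups, and p-values are adjusted over all 22596 genes tested. A change was called at an adjusted p under 0.05. Statements that arrays did not overlap only describe genes named for their called changes, and add no support to the calls. Where a probe was not well above background on either array of a group, the fold change is given as a lower bound. Such a bound holds only for the brightest probe under this scaling and background subtraction. For some of these genes the log2 change with the authors' normalized values, the mean of the gene's probes or normexp is given too. That change is smaller than the bound. Over the 7 comparisons 256 member changes were called. With the normexp background correction and its added offset, 74 of the 256 were smaller by over 1.5 times, and none changed sign.

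The guidance genes differed widely in which cultures held them. Members well above background on all 10 arrays were Nrp2, Plxnb2, Efnb1, Ephb3, Slit3 and 33 more. No Robo was among them. Epha6, Epha8, Epha10, Ephb1 and Robo4, the endothelial Robo, were well above background on no array. Plxnb3 was well above background on 1 array and Sema5b on 2 arrays of different groups, and neither was tested. The single probe of Sema4c, a plexin-B2 ligand, had an outlier spot on the second null BM-MSC array and was not tested either. Its levels were 4.40 and 4.34 in the tumor line, 3.74 on the other null BM-MSC array, 3.59 and 3.55 in WT BM-MSC, 4.05 and 4.19 in null ASC, and 3.62 and 3.74 in WT ASC.

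**Figure D1:**
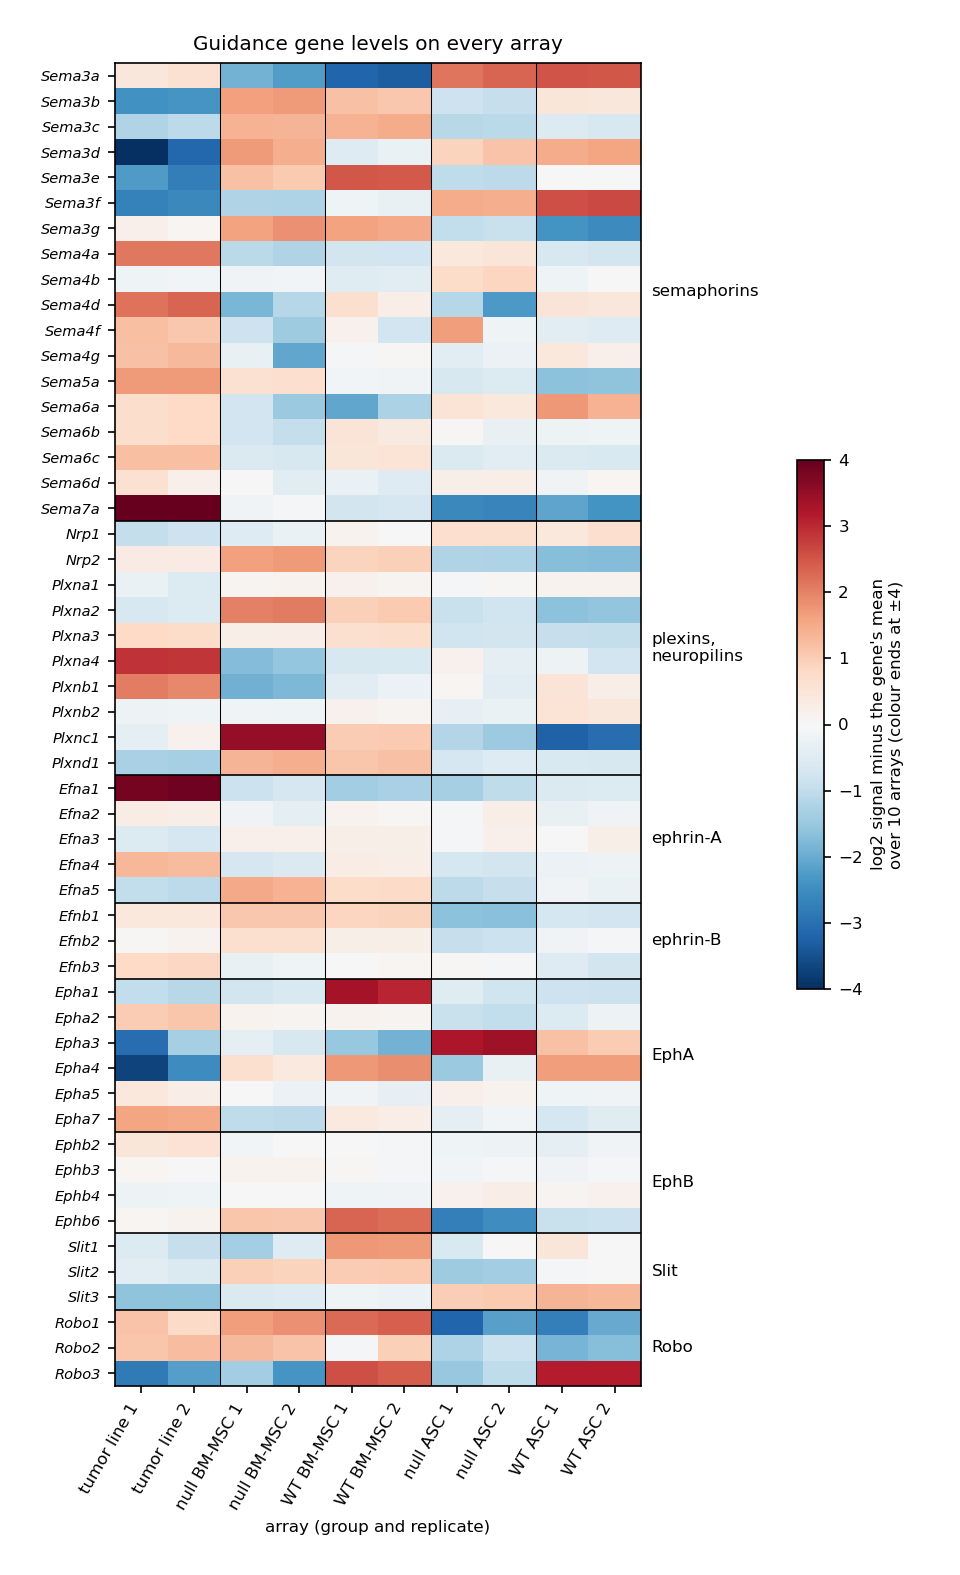
Levels of the 52 tested guidance genes on the 10 arrays, by family. Each column is an array, each row a gene, and the colour is the log2 level minus the gene's mean over the 10 arrays. Duplicate arrays of a group look alike apart from a few genes such as Sema4f and Sema4g, and Sema7a and Efna1 stand out in the tumor line, Epha1 in WT BM-MSC and Epha3 in null ASC.

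Loss of Rb and p53 with priming was first compared in bone marrow cells. Of the 52 guidance genes 33 were called, 14 higher and 19 lower in null BM-MSC, which is 63.5% of the members beside 39.5% of all genes tested. The median size of the log2 change was 0.60 over the members and 0.25 over all genes. Semaphorins moved both ways, with 6 of 18 higher and 6 lower. Of the 10 plexins and neuropilins 4 rose and 5 fell. All calls among Eph receptors, Slits and Robos were falls: 2 of 6 EphA, 1 of 4 EphB, 2 of 3 Slits and 1 of 3 Robos. The called shares were 33.3% of EphA, 25% of EphB and 33.3% of Robos, below the 39.5% of all genes. They were 66.7% of Slits, 66.7% of semaphorins and 90% of plexins and neuropilins. Of all 22596 genes tested 4354 were higher and 4566 lower in null BM-MSC. Of the 8 ephrin ligands 6 were called, 4 higher and 2 lower.

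The receptor Epha1, the first Eph receptor to be described, had the largest fall among members well above background in both groups. Its levels were -0.94 and -0.82 in null BM-MSC, against 3.1 and 2.85 in WT BM-MSC. No arrays of the groups overlapped, and the change was -3.86 ± 0.12, a 14.5-fold fall (limma adjusted p = 8.58e-06). Null and WT ASC and the tumor line lay between -1.31 and -0.70, so high Epha1 was seen in WT BM-MSC and in no other group. Robo3, a Robo of commissural axons, was at -5.11 and -6.06 in null BM-MSC, not well above background, against -1.13 and -1.28 in WT BM-MSC, at least 16.6-fold lower in null BM-MSC (adjusted p = 0.000198). With the mean of its probes the Robo3 change was -2.32, its other probe being near background. The axon repellent Slit1 was at -5.57 and -4.73 in null BM-MSC, where 1 array was well above background, against -2.48 and -2.49 in WT BM-MSC (-2.67 ± 0.34, adjusted p = 0.00129).

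The promoters of Epha1 and Robo3 are shown because these receptors had the largest falls, and Rb and p53 act on promoters, Rb through E2F factors. RefSeq sequences of the GRCm38.p6 build matched 53 of the 60 members, each 300 bases long, from 250 before to 50 after a gene's start. Capitals mark the GC box GGGCGG, the site of Sp1-type factors, on either strand, with 2 overlapping copies in Robo3. The Epha1 window is chr6:42373219-42373518 and that of Robo3 chr9:37433126-37433425, both on the minus strand. The genes shown were chosen after their values were seen.
Epha1: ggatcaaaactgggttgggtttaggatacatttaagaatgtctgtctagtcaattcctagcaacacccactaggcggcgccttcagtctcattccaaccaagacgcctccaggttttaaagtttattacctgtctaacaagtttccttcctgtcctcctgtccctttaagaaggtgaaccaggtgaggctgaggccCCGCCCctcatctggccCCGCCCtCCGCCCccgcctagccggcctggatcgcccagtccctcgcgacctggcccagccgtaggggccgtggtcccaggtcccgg
Robo3: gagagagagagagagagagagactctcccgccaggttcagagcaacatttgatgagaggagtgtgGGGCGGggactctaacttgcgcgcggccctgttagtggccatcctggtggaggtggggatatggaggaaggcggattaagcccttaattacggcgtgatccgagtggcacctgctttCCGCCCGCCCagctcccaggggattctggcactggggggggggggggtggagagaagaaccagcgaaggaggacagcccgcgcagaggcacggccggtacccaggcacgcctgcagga
The E2F motifs TTTCCCGC, TTTCGCGC, TTTGCCGC and TTTGGCGC and the p53 decamer motif were searched on both strands, and these windows held none of them. Of 69 member promoters 0 held such an E2F motif and 4 a p53 motif (5.80%), beside 2.26% and 8.36% of all 32851 promoters in the table. The GC box was in 49 of the 69 member promoters (71.0%), beside 35.7% of all promoters. A missing match says only that these letters are not in these windows.

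Among semaphorin receptors, Plxnc1, the plexin that binds Sema7a, rose most in null BM-MSC. It was at 1.32 and 1.32 there, against -1.17 and -1.14 in WT BM-MSC, a change of 2.48 ± 0.19 (adjusted p = 0.000153). Both null arrays stood far above both WT arrays. Plxna2, a receptor of class 6 semaphorins, was at 4.0 and 4.07 in null BM-MSC, against 2.95 and 3.04 in WT BM-MSC (1.04 ± 0.07). The Plxna2 values are those of its probe on chromosome 1, since the other probe that the files name Plxna2 lies on chromosome 13. Nrp2, the neuropilin that favours Sema3f, rose by 0.75 and Plxnd1, the receptor of Sema3e, by 0.27; the Plxnd1 call was lost without the second null BM-MSC array (adjusted p = 0.0798) or the first WT BM-MSC array (0.077), and with the mean of its probes (0.0753). Plxnb1, the receptor of Sema4d, was at -5.09 and -4.95 in null BM-MSC, with 1 array well above background, against -3.61 and -3.39 in WT BM-MSC (-1.52 ± 0.19, or -0.90 with the authors' normalized values). Plxna3 fell by 0.41 ± 0.05 and Plxnb2 by 0.32 ± 0.06.

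Secreted class 3 semaphorins split in null BM-MSC. Sema3d was at -1.27 and -1.51 in null BM-MSC, against -3.5 and -3.25 in WT BM-MSC (1.99 ± 0.36, adjusted p = 0.00554). Sema3a, the founding vertebrate semaphorin and a brake on osteoclasts, was at -2.45 and -2.78, against -3.72 and -3.86 in WT BM-MSC (1.17 ± 0.12, adjusted p = 0.000604). Both genes were higher on each null array than on each WT array, and Sema3b rose by 0.54 ± 0.06. Sema3e fell by 1.35 ± 0.14 and Sema3f by 0.98 ± 0.07, while Sema3c and Sema3g changed by -0.06 and 0.14 without passing the test. The transmembrane Sema6b fell by 1.31 ± 0.13 and Sema6c fell by 1.12 ± 0.06. Sema4d was at -5.95 and -5.28 in null BM-MSC, not well above background, against -3.5 and -3.87 in WT BM-MSC, at least 2.79-fold lower in null BM-MSC (adjusted p = 0.00926; a log2 change of -1.0 with the authors' normalized values). That call was lost without the first null BM-MSC array (0.0546) or the first WT BM-MSC array (0.0549). Plxna4 was at least 1.8-fold lower in null BM-MSC, with -5.39 and -5.2 there, against -4.28 and -4.27 in WT BM-MSC. With the mean of its probes the Plxna4 log2 change was -0.39 and the call was lost (limma adjusted p = 0.091), as it was with normexp (0.143). Leaving out the first null BM-MSC array or either WT BM-MSC array lost the call too.

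No ephrin ligand changed by more than 0.90 in bone marrow cells. Efna5 rose by 0.69 ± 0.07, Efna1 by 0.57 ± 0.11 and Efnb2 by 0.41 ± 0.05, and Efna4 fell by 0.90 ± 0.05. The Efna1 call was lost without the second null BM-MSC array (adjusted p = 0.0505) and that of Efnb2 with the mean of its probes (0.249). Ephb6, an Eph receptor without kinase activity, fell by 1.20 ± 0.08, with levels of 4.41 and 4.37 in null BM-MSC, against 5.64 and 5.55 in WT BM-MSC. Epha7, which had -4.26 and -4.27 in null BM-MSC, against -2.83 and -2.96 in WT BM-MSC, changed by -1.37 ± 0.11 with its brightest probe and by -0.51 with the mean of its probes (adjusted p = 0.138). Epha2, Ephb2, Ephb3 and Ephb4 did not pass the test, with changes between -0.04 and 0.15.

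In adipose cells, 30 of the 52 guidance genes were called, 11 higher and 19 lower in null ASC. That is 57.7% of the members, beside 41.5% of all genes tested, with a median size of 0.56 over the members and 0.28 over all genes. Semaphorins gave 4 rises and 7 falls among 18. Of 5 ephrin-A ligands 3 fell. Among plexins and neuropilins 4 of 10 rose and 1 fell. The called shares were 61.1% of semaphorins, 60% of ephrin-A ligands and 50% of plexins and neuropilins, beside the 41.5% of all genes. Of all 22596 genes tested 4594 were higher and 4785 lower in null ASC.

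Robo3 had the largest fall in adipose cells. It was at -5.22 and -4.72 in null ASC, where 1 array was well above background, against -0.57 and -0.57 in WT ASC (-4.40 ± 0.35, adjusted p = 0.000158; -2.67 with the mean of its probes). Among Eph receptors Epha4, which binds both ephrin classes, Ephb6 and Epha2 fell, Epha2 by 0.56 ± 0.11. Epha4 was at -5.34 and -4.13 in null ASC, with 1 array well above background, against -2.16 and -2.17 in WT ASC (-2.57 ± 0.48, adjusted p = 0.00585). Ephb6 was at 0.56 and 0.81 in null ASC, against 2.40 and 2.43 in WT ASC (-1.73 ± 0.08, adjusted p = 2.42e-05). The groups did not overlap in these genes. Epha3, a receptor of ephrin-A5, went the other way, with -1.14 and -0.98 in null ASC, against -3.21 and -3.35 in WT ASC (2.22 ± 0.50, adjusted p = 0.0127). That call was lost without the second null ASC array (0.0588) or the second WT ASC array (0.0591).

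Ligands that fell in null ASC included Slit2, the best known Robo ligand, with -1.47 and -1.44 in null ASC, against -0.11 and -0.07 in WT ASC (-1.37 ± 0.06). Sema3b was at 1.58 and 1.49 in null ASC, against 2.90 and 2.87 in WT ASC (-1.35 ± 0.06). Sema3f fell by 1.14 ± 0.07, Sema3e by 1.03 ± 0.14, Efnb1 by 0.93 ± 0.04, Efnb2 by 0.81 ± 0.05 and Efna5 by 0.77 ± 0.07. Sema4d was at -5.26 and -6.42 in null ASC, not well above background, against -3.61 and -3.68 in WT ASC, at least 3.05-fold lower in null ASC (adjusted p = 0.00489; a log2 change of -1.09 with the authors' normalized values). The membrane-bound Sema4a, Sema4b and Sema5a rose in null ASC. Sema4a was at -1.25 and -1.20 in null ASC, against -2.33 and -2.40 in WT ASC (1.15 ± 0.05). Sema5a was at 1.37 and 1.47 in null ASC, against 0.37 and 0.41 in WT ASC (1.03 ± 0.05). Sema4b was at 0.69 and 0.79 in null ASC, against -0.22 and -0.04 in WT ASC (0.87 ± 0.07). In each of these genes the null arrays lay on 1 side of the WT arrays.

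Plxnc1 and Sema3g were not well above background in WT ASC. Plxnc1 was at -3.35 and -3.66 in null ASC, against -5.43 and -5.24 in WT ASC, at least 3.56-fold higher in null ASC (adjusted p = 0.000422; a log2 change of 1.20 with the mean of its probes). Sema3g was at -3.97 and -3.87 in null ASC, against -5.37 and -5.53 in WT ASC, at least 2.76-fold higher in null ASC. With the authors' normalized values the Sema3g change was 0.96, and the call was lost with the mean of its probes (adjusted p = 0.0647). The receptor Plxnb2 fell by 0.80 ± 0.06, and Plxna2 and Nrp2 rose by 0.78 ± 0.07 and 0.50 ± 0.05.

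The change in null cells was then compared between tissues, as null BM-MSC minus WT BM-MSC, minus the same difference in ASC. The difference passed the limma test for 31 of the 52 members (59.6%), beside 31.8% of all genes tested. Robo3 fell in both tissues and was not well above background in null BM-MSC, so no difference between its falls is given. The largest differences were those of Epha1 (-4.06 ± 0.18, adjusted p = 4.0e-05), which fell in null BM-MSC and changed by 0.21 in null ASC without passing the test, and of Sema3d (2.48 ± 0.51, adjusted p = 0.0118). Members called in the same direction in both tissues were 13 (25.0%, beside 18.9% of all genes tested): Nrp2, Plxna2, Plxnc1, Sema4b and Sema5a were higher in both null groups, and Efna4, Ephb6, Plxnb2, Robo3, Sema3e, Sema3f, Sema4d and Slit3 lower. The Sema4b rise in bone marrow cells was lost without either null BM-MSC array or without the first WT BM-MSC array (adjusted p = 0.0507 to 0.0769).

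Members called in opposite directions were 9 (17.3%, beside 5.22% of all genes tested). For all 9 the difference of the changes passed the test, which nearly follows from the opposite calls and adds no support. Efna1, Efna5, Efnb1, Efnb2, Sema3b and Sema7a were higher in null BM-MSC and lower in null ASC, while Efnb3, Plxna3 and Sema4a were lower in null BM-MSC and higher in null ASC. Sema3b differed most among them, with 0.54 in bone marrow cells and -1.35 in adipose cells (1.88 ± 0.08, adjusted p = 4.0e-05). Sema4a had -0.39 in bone marrow cells and 1.15 in adipose cells (-1.54 ± 0.08, adjusted p = 6.01e-05). Efna5, a lipid-anchored ligand, had 0.69 and -0.77 (1.47 ± 0.10, adjusted p = 0.000176). Of the 9, Efna5, Sema3b and Sema4a kept both calls under every alternative run. The bone marrow call of Efnb1 was lost without either null BM-MSC array or without the first WT BM-MSC array (adjusted p = 0.053 to 0.0574). The adipose call of Sema7a was lost without the first null ASC array (0.0627), the second null ASC array (0.105) or the first WT ASC array (0.0747). The adipose call of Plxna3, of 0.18, was lost without the second null ASC array (0.157) or either WT ASC array (0.0910 and 0.104), and without any 1 bone marrow array. All 3 ephrin-B ligands were in this group: Efnb1 (0.20 and -0.93), Efnb2 (0.41 and -0.81) and Efnb3 (-0.28 and 0.61, whose bone marrow call was lost without any 1 array other than those of WT ASC).

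**Figure D2:**
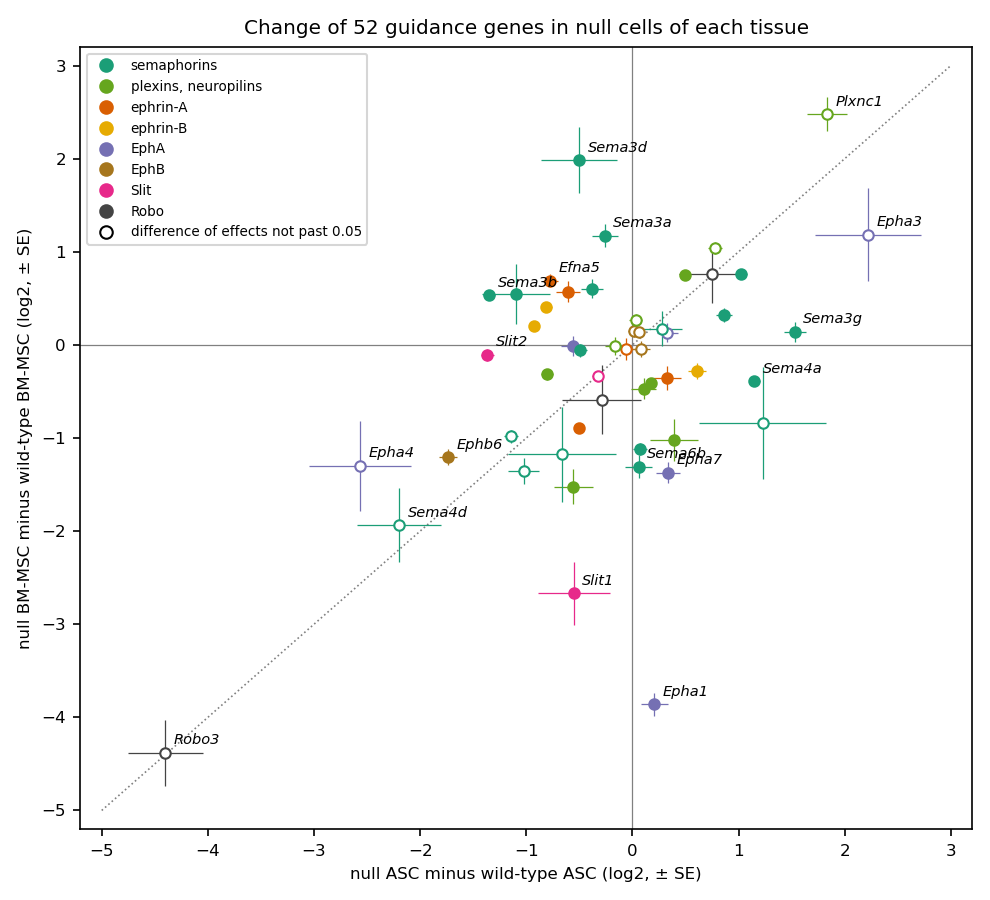
Log2 change in null cells of each tissue for the 52 tested members: null BM-MSC minus WT BM-MSC on the vertical axis, null ASC minus WT ASC on the horizontal axis, with standard errors as bars. Filled points passed the test of the difference of the changes, and the dotted line marks equal change. Epha1 lies far below that line, and Sema3d and Sema3a lie above it. Points of genes below background in a group are fitted values, not bounds.

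Bone marrow and adipose cells were compared next, in each genotype. Between WT BM-MSC and WT ASC 38 of 52 members were called, 26 higher and 12 lower in BM-MSC (73.1%, beside 54.0% of all genes tested). Between null BM-MSC and null ASC 36 were called, 22 higher and 14 lower (69.2%, beside 55.4% of all genes). The median size was 0.85 for WT and 1.32 for null members, and 0.36 and 0.39 over all genes. In both genotypes 19 members were higher in BM-MSC (36.5%, beside 17.5% of all genes tested) and 9 lower (17.3%, beside 19.8%), and 3 had opposite calls (5.77%, beside 3.88%). These comparisons share no array with each other.

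Sema3a showed the widest gap between the tissues in WT cells. It was at -3.72 and -3.86 in WT BM-MSC, against 1.96 and 1.94 in WT ASC (-5.74 ± 0.12, a 53.5-fold lower level in BM-MSC, adjusted p = 2.95e-07), and at -2.45 and -2.78 in null BM-MSC, against 1.60 and 1.79 in null ASC (-4.31 ± 0.12). Sema3f was low in bone marrow cells too, with 0.59 and 0.45 in WT BM-MSC, against 3.34 and 3.39 in WT ASC (-2.85 ± 0.07), and with -0.44 and -0.49 in null BM-MSC, against 2.23 and 2.21 in null ASC (-2.69 ± 0.07). Other class 3 members ran the other way, and Sema3b (0.66 in WT and 2.54 in null cells), Sema3c (2.03 and 2.46) and Sema3e (2.47 and 2.15) were higher in BM-MSC. Sema3g was at -1.35 and -1.44 in WT BM-MSC, against -5.37 and -5.53 in WT ASC, at least 15.9-fold higher in BM-MSC. The log2 change of Sema3g with normexp was 1.80. Sema3d was at -3.5 and -3.25 in WT BM-MSC, against -1.50 and -1.41 in WT ASC (-1.92 ± 0.36), and its difference in null cells was 0.57 ± 0.36 and not called. Sema6a was at -5.19 and -4.37 in WT BM-MSC, with 1 array well above background, against -1.37 and -1.71 in WT ASC (-3.24 ± 0.32, or -1.98 with the mean of its probes).

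Of 10 plexins and neuropilins, 5 were higher and 3 lower in BM-MSC in each genotype. That is a called share of 80% in each, beside 54.0% of all genes in WT and 55.4% in null cells. Nrp2 was at 6.58 and 6.65 in WT BM-MSC, against 3.99 and 3.97 in WT ASC (2.64 ± 0.05, adjusted p = 1.47e-07), and at 7.34 and 7.40 in null BM-MSC, against 4.49 and 4.47 in null ASC (2.89 ± 0.05). Plxna2 was at 2.95 and 3.04 in WT BM-MSC, against 0.34 and 0.43 in WT ASC (2.61 ± 0.07). Plxnc1 was at least 18.1-fold higher in WT BM-MSC than in WT ASC (limma adjusted p = 5.19e-06), with a log2 change of 1.85 under normexp. On the log2 scale Plxnc1 was 4.83 ± 0.19 higher in null BM-MSC than in null ASC. Plxnd1 was higher by 1.77 in WT and 2.0 in null BM-MSC. Nrp1, the neuropilin of Sema3a, was lower in BM-MSC, by 0.48 ± 0.11 in WT cells and 1.05 ± 0.11 in null cells; the WT call was lost without the second WT BM-MSC array (adjusted p = 0.067) or the second WT ASC array (0.0643). Plxnb1 differed too, with -5.09 and -4.95 in null BM-MSC, against -3.09 and -3.60 in null ASC (-1.67 ± 0.19, or -1.02 with the authors' normalized values).

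Robo1, a Slit receptor, was well above background in all bone marrow arrays and in no adipose array. It was at -1.59 and -1.46 in WT BM-MSC, against -6.60 and -5.89 in WT ASC, at least 16.3-fold higher in BM-MSC (adjusted p = 6.74e-05). In null BM-MSC it was at -2.19 and -2.04, against -7.04 and -6.03 in null ASC, at least 8.8-fold higher (adjusted p = 8.54e-05). The change of Robo1 with the mean of its probes was 2.77 in WT and 2.48 in null cells. Slit2 was higher in bone marrow cells by 1.09 in WT and 2.35 in null cells, whereas Slit3 was lower by 1.55 ± 0.05 in WT and 1.56 ± 0.05 in null cells. Robo2, another Slit receptor, was not well above background in null ASC and was higher in null BM-MSC by at least 2.24-fold (a log2 change of 1.12 with the authors' normalized values).

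The kinase-dead receptor Ephb6 marked bone marrow cells of both genotypes. It was higher by 3.18 ± 0.08 in WT BM-MSC (9.04-fold, adjusted p = 6.2e-07) and by 3.71 ± 0.08 in null BM-MSC. Epha1 was higher by 4.03 ± 0.12 in WT BM-MSC than in WT ASC (16.3-fold, adjusted p = 1.14e-06), while null BM-MSC and null ASC differed by -0.04 ± 0.12 (adjusted p = 0.832). Epha3 was higher in adipose cells, at -5.88 and -6.26 in WT BM-MSC, not well above background, against -3.21 and -3.35 in WT ASC, at least 5.09-fold lower in BM-MSC (a log2 change of -1.64 with the authors' normalized values). In null cells it was at -4.76 and -5.01 in BM-MSC, against -1.14 and -0.98 in ASC (-3.83 ± 0.50). The ephrin-B ligands Efnb1 (1.61 in WT and 2.74 in null cells) and Efnb2 (0.32 and 1.54) and the ligand Efna5 (0.97 and 2.43) were higher in BM-MSC; the WT call of Efnb2 was lost with the mean of its probes (adjusted p = 0.209).

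**Figure D3:**
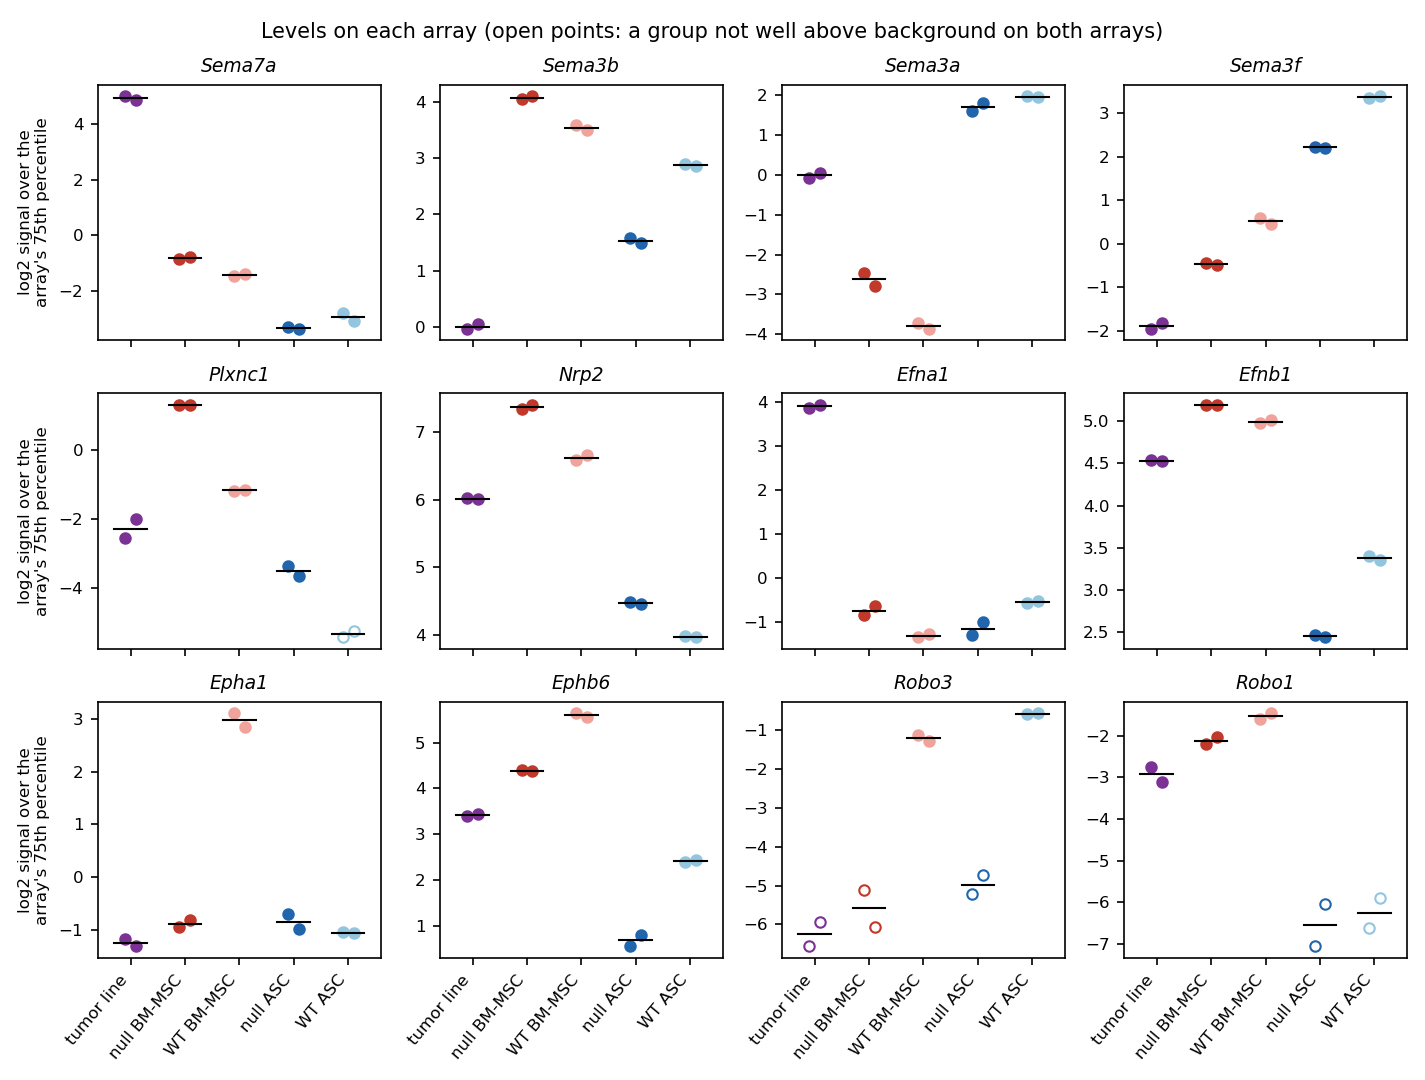
Levels of 12 guidance genes on each array, as log2 signal over the array's 75th percentile, by group; bars mark group means, and open points a group whose probe was not well above background on both arrays. Sema7a and Efna1 are highest in the tumor line, Epha1 is high in WT BM-MSC alone, Robo3 is low in both null groups and the tumor line, and Robo1 is low in both ASC groups. The vertical axes differ between genes.

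The tumor line was compared with the null BM-MSC it derives from. Of the 52 members 45 were called, 22 higher and 23 lower in the tumor line (86.5%, beside 69.5% of all genes tested). Their median size was 1.43, beside 0.61 over all genes. Against WT BM-MSC 43 were called, 18 higher and 25 lower (82.7%, beside 67.8% of all genes). Both comparisons use the same tumor arrays, so their counts are not independent. Against null BM-MSC 11 of 18 semaphorins rose, and the 6 that fell were all secreted class 3 members. The called share of semaphorins was 94.4%. Of all 22596 genes tested 7809 were higher and 7905 lower in this comparison.

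Sema7a, a lipid-anchored semaphorin that binds Plxnc1 and integrins, rose most. It was at 5.02 and 4.89 in the tumor line, against -0.87 and -0.78 in null BM-MSC and -1.46 and -1.40 in WT BM-MSC. The tumor arrays lay far above all others, and the change against null BM-MSC was 5.77 ± 0.10, a 54.7-fold rise (limma adjusted p = 8.46e-08), and 6.38 ± 0.10 against WT BM-MSC. Plxnc1 went the other way, with -2.54 and -2.0 in the tumor line, against 1.32 and 1.32 in null BM-MSC (-3.60 ± 0.19, adjusted p = 5.97e-06) and -1.17 and -1.14 in WT BM-MSC (-1.12 ± 0.19). Efna1, a ligand of EphA receptors, was second among the rises. It was at 3.86 and 3.93 in the tumor line, against -0.84 and -0.63 in null BM-MSC (4.63 ± 0.11, 24.8-fold, adjusted p = 3.02e-07) and -1.34 and -1.27 in WT BM-MSC (5.2 ± 0.11). The probe of Sema7a lies at chr9:57810607-57810666 and that of Efna1 at chr3:89075703-89075762, in mm9 as the files give it.

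The promoters of these genes are shown because they rose most. Their windows in GRCm38.p6 are chr9:57939862-57940161 on the plus strand for Sema7a and chr3:89280902-89281201 on the minus strand for Efna1, the first of 2 tabled for that gene. Capitals again mark the GC box on either strand.
Sema7a: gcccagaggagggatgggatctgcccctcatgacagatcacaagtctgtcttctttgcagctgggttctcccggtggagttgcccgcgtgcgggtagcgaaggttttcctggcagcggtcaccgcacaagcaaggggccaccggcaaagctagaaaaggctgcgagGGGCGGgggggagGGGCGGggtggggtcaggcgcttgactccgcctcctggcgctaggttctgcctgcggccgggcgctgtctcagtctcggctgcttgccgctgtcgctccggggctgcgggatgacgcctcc
Efna1: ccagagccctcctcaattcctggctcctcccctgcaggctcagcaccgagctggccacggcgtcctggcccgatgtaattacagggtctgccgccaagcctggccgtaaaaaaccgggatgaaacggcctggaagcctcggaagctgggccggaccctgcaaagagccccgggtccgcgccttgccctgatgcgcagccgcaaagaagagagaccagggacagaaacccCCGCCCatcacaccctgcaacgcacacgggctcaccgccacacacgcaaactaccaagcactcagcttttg
Neither window held one of the E2F motifs or a p53 motif, and the Sema7a window held 2 GC boxes and that of Efna1 1.

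Further rises were seen among membrane-bound semaphorins and plexins. Sema4a was at 0.44 and 0.44 in the tumor line, against -2.76 and -2.87 in null BM-MSC (3.26 ± 0.05, adjusted p = 7.19e-08). Sema4d was at -1.95 and -1.81 in the tumor line, against -5.95 and -5.28 in null BM-MSC, not well above background, at least 9.75-fold higher (adjusted p = 0.000178), and against -3.5 and -3.87 in WT BM-MSC (1.81 ± 0.39). Plxnb1, its receptor, was at -1.14 and -1.24 in the tumor line, against -5.09 and -4.95 in null BM-MSC, where 1 array was well above background (3.83 ± 0.19), and -3.61 and -3.39 in WT BM-MSC (2.31 ± 0.19). Neither gene had tumor arrays overlapping the others. Plxna4, a plexin of class 3 and class 6 semaphorins, was at -0.74 and -0.80 in the tumor line, against -5.39 and -5.2 in null BM-MSC, at least 20.4-fold higher (a log2 change of 2.19 with the mean of its probes), and against -4.28 and -4.27 in WT BM-MSC (3.5 ± 0.23, or 1.80 with the mean of its probes, the other being below background). Sema6c rose by 1.81 ± 0.06, Sema6b by 1.61 ± 0.13 and Sema5a by 1.05 ± 0.05 against null BM-MSC. Sema4g was at -0.03 and 0.07 in the tumor line, against -1.52 and -3.29 in null BM-MSC (2.42 ± 0.51, or 1.54 without the second null BM-MSC array).

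Sema3a was the class 3 semaphorin that rose. It was at -0.09 and 0.05 in the tumor line, against -2.45 and -2.78 in null BM-MSC (2.59 ± 0.12) and -3.72 and -3.86 in WT BM-MSC (3.77 ± 0.12, adjusted p = 9.15e-07). The 6 other class 3 members fell against null BM-MSC. Sema3b, a candidate tumor suppressor in other cancers, was at -0.03 and 0.05 in the tumor line, against 4.05 and 4.10 in null BM-MSC (-4.06 ± 0.06, adjusted p = 4.45e-08) and 3.58 and 3.49 in WT BM-MSC (-3.52 ± 0.06). Sema3e was at -4.96 and -5.44 in the tumor line, against -1.52 and -1.63 in null BM-MSC (-3.62 ± 0.14) and -0.20 and -0.24 in WT BM-MSC (-4.98 ± 0.14). Sema3d was at -7.30 and -6.11 in the tumor line, not well above background, against -1.27 and -1.51 in null BM-MSC. That is at least 17.6-fold lower (limma adjusted p = 1.95e-05), with a log2 change of -1.90 under normexp. The groups did not overlap in any of these genes. Sema3c was at 0.21 and 0.37 in the tumor line, against 2.82 and 2.76 in null BM-MSC (-2.50 ± 0.07), and Sema3f fell by 1.42 ± 0.07 and Sema3g fell by 1.58 ± 0.10.

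Of 10 plexins and neuropilins 3 were higher and 6 lower in the tumor line than in null BM-MSC. That is a called share of 90%, beside 69.5% of all genes tested. Plxnd1, the receptor of Sema3e, was at 2.55 and 2.52 in the tumor line, against 5.22 and 5.29 in null BM-MSC (-2.72 ± 0.06, adjusted p = 2.12e-07) and 4.95 and 5.03 in WT BM-MSC (-2.45 ± 0.06). Plxna2 fell by 2.64 ± 0.07, Nrp2 by 1.36 ± 0.05 and Nrp1 by 0.50 ± 0.11. Plxnb2 changed by -0.02 and was not called. Slit2 fell by 1.44 ± 0.06 and Slit3 fell by 1.07 ± 0.05. No Robo passed the limma test against null BM-MSC, and none had an unadjusted p under 0.05: Robo1 changed by -0.81 ± 0.37 (unadjusted p = 0.069, adjusted p = 0.0924), Robo2 by -0.02 ± 0.31, and Robo3 was below background in both groups.

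Among ephrins, Efna4 rose by 1.92 ± 0.05 and Efnb3 by 1.05 ± 0.09, and Efna5 fell by 2.46 ± 0.07, against null BM-MSC. Efnb1 fell by 0.66 ± 0.04 and Efnb2 fell by 0.55 ± 0.05. Of the receptors, Epha7 rose by 2.58 ± 0.11 (1.14 with the mean of its probes) and Epha2, the main receptor of ephrin-A1, by 0.93 ± 0.11, with 3.21 and 3.30 in the tumor line, against 2.33 and 2.31 in null BM-MSC. Epha4 was at -7.56 and -6.38 in the tumor line, not well above background, against -3.21 and -3.45 in null BM-MSC, at least 4.58-fold lower (a log2 change of -1.99 with the authors' normalized values). Against -2.10 and -1.98 in WT BM-MSC, Epha4 was at least 11.3-fold lower (a log2 change of -3.14 with the authors' normalized values). Epha1 was at -1.18 and -1.31 in the tumor line, against 3.1 and 2.85 in WT BM-MSC (-4.22 ± 0.12, adjusted p = 5.97e-07). Robo3 was at least 20.1-fold lower in the tumor line than in WT BM-MSC (adjusted p = 2.45e-05; a log2 change of -3.35 with the mean of its probes). Ephb6 fell by 0.97 ± 0.08 against null BM-MSC and by 2.17 ± 0.08 against WT BM-MSC.

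**Figure D4:**
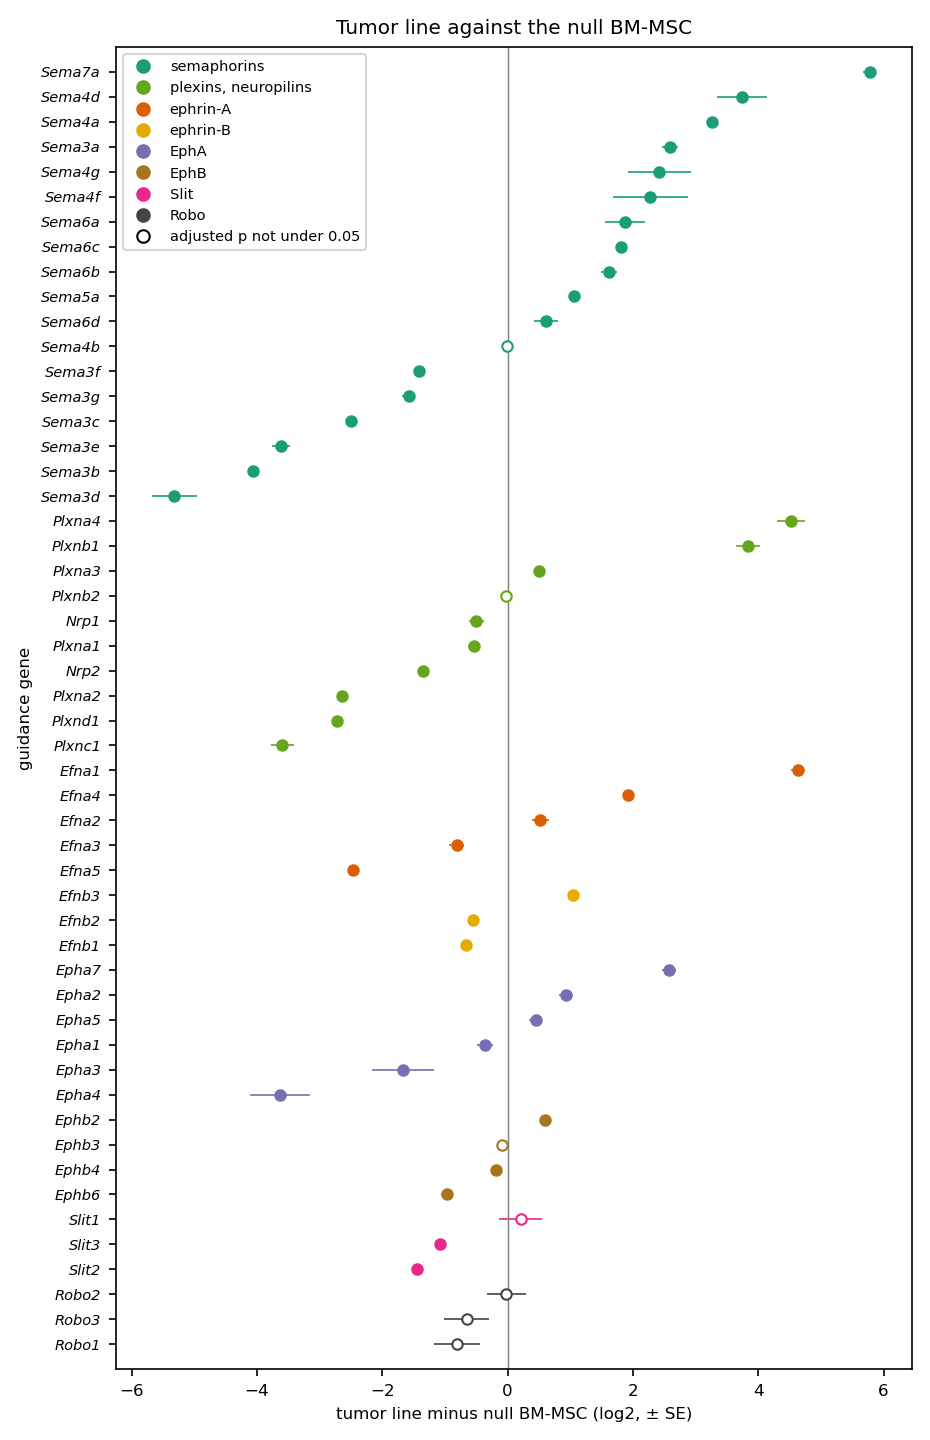
Log2 change of the 52 tested members in the tumor line minus null BM-MSC, grouped by family and ordered by size, with standard errors as bars; open points did not pass the limma test. Sema7a is farthest to the right at 5.77, Efna1 and Plxna4 lead their families, and Sema3a is the one class 3 semaphorin to the right of 0. Points of genes below background in a group are fitted values, not bounds.

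The tumor line against null BM-MSC and null BM-MSC against WT BM-MSC share the null BM-MSC arrays, so their values are given side by side with no reading of how they relate. Sema7a changed by 5.77 in the tumor line and by 0.60 in null BM-MSC, Efna1 by 4.63 and 0.57, and Sema3a by 2.59 and 1.17. Sema3e changed by -3.62 in the tumor line and by -1.35 in null BM-MSC, and Ephb6 by -0.97 and -1.20. Plxnc1 changed by -3.60 in the tumor line and by 2.48 in null BM-MSC, Efna5 by -2.46 and 0.69, and Sema4a by 3.26 and -0.39. The Epha1 fall of 0.36 ± 0.12 against null BM-MSC was lost without either null BM-MSC array (adjusted p = 0.0673 and 0.153), either tumor array (0.0623 and 0.155) or either WT ASC array (0.0575 each). The Nrp1 fall in null BM-MSC was lost without the first null BM-MSC array (0.0883) or either WT BM-MSC array (0.0925 and 0.0506).

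Some members lie close together in the genome. Efna1, Efna3 and Efna4 have probes within 62.5 kb on chromosome 3 in mm9, and against null BM-MSC they changed by 4.63, -0.81 and 1.92 in the tumor line; the Efna3 call was lost with the mean of its probes (adjusted p = 0.0709). Sema3b and Sema3f have probes 83.1 kb apart on chromosome 9, and they differed between tissues in opposite directions, by 0.66 and -2.85 in WT BM-MSC minus WT ASC. Robo3 and Robo4 have probes 2.87 kb apart, and Robo4 was below background in all groups. In 64 comparisons with a further probe of the same name well above background, 6 of them with the Plxna2 probe on chromosome 13, 4 had the opposite sign, those of Epha7, Ephb4 and Sema6d.

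Partners and effectors of these receptors were taken from a list of 62 genes, 60 of them tested. In null BM-MSC 21 were higher and 13 lower than in WT BM-MSC, in null ASC 13 were higher and 18 lower than in WT ASC, and in the tumor line 22 were higher and 28 lower than in null BM-MSC. The called shares were 56.7%, 51.7% and 83.3% of this list, beside 39.5%, 41.5% and 69.5% of all genes tested. Ngef, the exchange factor ephexin that acts under EphA receptors, rose by 3.08 ± 0.09 in null BM-MSC and by 3.86 ± 0.09 in the tumor line against null BM-MSC. Met, a receptor kinase that couples to plexin-B1, fell by 1.11 ± 0.06 in null BM-MSC and rose by 3.63 ± 0.06 in the tumor line against null BM-MSC. Rnd3, a small GTPase that binds plexins, fell by 1.30 ± 0.04 in null ASC and by 3.49 ± 0.04 in the tumor line against null BM-MSC. Mst1r, another plexin-coupled kinase, fell by 2.22 ± 0.12 in null BM-MSC and rose by 3.35 ± 0.12 in the tumor line against null BM-MSC. Crmp1, a mediator of Sema3a signals, was at least 74-fold higher in the tumor line than in null BM-MSC. Of the netrin and RGM families, 13 of 18 listed genes were tested, with 5 called in null BM-MSC, 5 in null ASC and 12 in the tumor line against null BM-MSC. Those shares were 38.5%, 38.5% and 92.3%, beside 39.5%, 41.5% and 69.5% of all genes, so both null counts were close to the background. The netrin receptor Unc5b fell by 2.69 ± 0.07, and its relative Unc5c fell by 2.37 ± 0.06, in the tumor line against null BM-MSC.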

How the data were processed

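Total RNA of 10 cultures was labelled with Cy3 and hybridised to Agilent whole-genome mouse arrays with probes of 60 bases. Per the file headers, Agilent Feature Extraction made the deposited processed intensity of each spot, with background subtracted. The deposited series table holds the authors' normalized log2 values of the same arrays, which followed the scanner values with correlations of 0.989 to 0.993 and had array medians of 5.04 to 5.06, with its exact scaling not given in the sources used here; it served as an alternative.

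Intensities were scaled to each array's 75th percentile and put on the log2 scale, outlier spots and control spots were left out, and the brightest probe stood for a gene. A gene was tested where both arrays of any 1 group lay well above background, which left 22596 genes. limma 3.58.1 in R 4.3.3 fitted all 5 groups in 1 model, with Benjamini-Hochberg adjustment at 0.05 over all genes; the code was tested on simulated data. Each group had 2 independent cultures per the labels' protocols. Signals ran at 483 to 621 units at the 75th percentile, no array had saturated spots, and 2 arrays a group limit the precision. A bound sets the brighter group's mean against the lowest signal well above background, or the dim probe's own value if higher.

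The members and lists were chosen with earlier results of these data known. Every member could be named. Array values are given for the 4 largest rises and falls of each comparison and up to 3 bounds, with further members chosen after their values were seen, and from each further list up to 3 rises and 3 falls. Alternatives were normexp with an offset of 50, quantile scaling, a floor, the mean of a gene's probes, other filters on dim probes, the first slide alone, the replicate block and leaving out each array.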

Additional observations from a re-analysis of the deposited data

Results flagged for a closer look

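For 31 guidance genes the change in null BM-MSC and the change in null ASC, each against its own WT cells, differed by the limma test of the difference itself. The values below are the bone marrow change minus the adipose change on the log2 scale. Among semaphorins the difference was 2.48 for Sema3d, 1.88 for Sema3b, 1.64 for Sema6a, 1.43 for Sema3a, 0.98 for Sema7a and 0.44 for Sema3c. It was -0.26 for Sema5a, -0.54 for Sema4b, -1.19 for Sema6c, -1.37 for Sema6b, -1.39 for Sema3g and -1.54 for Sema4a. Among their receptors it was 0.49 for Plxnb2 and 0.25 for Nrp2, and -0.58 for Nrp1, -0.59 for Plxna3, -0.97 for Plxnb1 and -1.42 for Plxna4. Among ephrins it was 1.47 for Efna5, 1.22 for Efnb2, 1.18 for Efna1, 1.13 for Efnb1, -0.40 for Efna4, -0.68 for Efna2 and -0.89 for Efnb3. Among Eph receptors it was 0.55 for Epha2, 0.53 for Ephb6, -1.71 for Epha7 and -4.06 for Epha1, and among Slits 1.26 for Slit2 and -2.11 for Slit1. The values of Sema3g and Plxna4 include a group that was not well above background and are fitted values. Of the 31 calls 18 were kept under all 19 alternatives, and the 13 others were those of Efna2, Epha2, Epha7, Ephb6, Nrp1, Nrp2, Plxna4, Plxnb1, Sema3c, Sema3g, Sema5a, Sema6a and Slit1.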

How the results depend on the processing

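The number of guidance genes called stayed within 1.5 times its reported value under every alternative, in all 7 comparisons, and no called change reversed. Leaving out 1 array at a time gave 26 to 34 called members for null BM-MSC against WT BM-MSC, 26 to 30 for null ASC against WT ASC and 21 to 27 for the difference between those changes. It gave 41 to 46 for the tumor line against null BM-MSC, 41 to 44 for the tumor line against WT BM-MSC, 37 to 39 for WT BM-MSC against WT ASC and 32 to 37 for null BM-MSC against null ASC. With the replicate number as a block the counts were 32, 28 and 30 for the null comparisons and their difference, 45 and 44 for the tumor line, 38 for WT tissues and 37 for null tissues. The numbers name duplicate cultures and do not pair samples: same-numbered arrays of different groups deviated with correlations of -0.12 to 0.12. Of the 256 called member changes, 74 were smaller by over 1.5 times with normexp, 45 moved as much with the mean of all probes, 5 of them of Plxna2, whose other named probe lies on chromosome 13, and 18 with the authors' normalized values. Of the 33 calls in null BM-MSC 23 were kept under all alternatives, as were 24 of 30 in null ASC, 37 of 45 for the tumor line against null BM-MSC and 39 of 43 against WT BM-MSC. With 2 cultures a group and dim signals for 14 of the 52 members, small changes of dim genes were not detectable.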
